A study of Mus musculus with 12 samples.

Results

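A set of 9 genes of fatty acid use in the heart were followed by name across the 4 groups of the study: Pdk4, Ucp3, Cpt1a, Cpt1b, Acot1, Acot2, Plin2, Plin5 and Angptl4. They were 9 of the 52858 genes in the files, and all 9 passed the filter on low values that left 15258 genes for testing. Hearts of male mice aged 3 to 5 months were removed and perfused by the Langendorff method, in which a buffer is driven backward through the aorta into the coronary vessels of the isolated heart. C57BL/6J hearts (C57-non-IR) and hearts of mice overexpressing Slit2 (Slit2-non-IR) were perfused for 80 min without interruption. In the ischemia-reperfusion (IR) groups, C57-IR and Slit2-IR, flow was kept for 20 min, stopped altogether for 20 min and restored for 40 min. Each group held 3 hearts. Every heart, controls included, had therefore been excised and kept on a protocol of 80 min in all, which in the IR groups included the 20 min without flow.

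Slit2-Tg mice carry full-length human Slit2 cDNA driven by the CMV promoter, which is active in many cell types and not in cardiomyocytes alone. The construct had been injected into oocytes of a C57 and CBA cross, so that the transgene and any remaining CBA sequence cannot be told apart in a comparison with C57BL/6J. The files hold a row for mouse Slit2, in FPKM (fragments per kilobase of gene length, scaled to library size). It ranged from 0.180 to 0.222 in C57-non-IR, 0.213 to 0.282 in C57-IR, 0.169 to 0.184 in Slit2-non-IR and 0.0847 to 0.813 in Slit2-IR hearts. This row is of the mouse gene, not the human transgene. How reads of the human cDNA would align to it was not checked, so that it checks no label.

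PPAR-alpha is a nuclear receptor that binds fatty acids and, as a partner of RXR, switches on genes for fatty acid uptake, storage and oxidation. The adult heart takes most of its energy from fatty acids, and fasting raises many of these genes in heart. Among the 9, Pdk4 holds back glucose oxidation, Cpt1a and Cpt1b admit fatty acids to mitochondria, Acot1 and Acot2 release free fatty acids from acyl-CoA, Ucp3 is a mitochondrial carrier, Plin2 and Plin5 coat lipid droplets, and Angptl4 is a secreted inhibitor of lipoprotein lipase.

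The libraries held 16601154 to 24841291 reads on genes, of which 19.7% to 26.0% lay on mitochondrial genes. The 10 markers of cardiomyocytes summed to between 24408 and 32660 FPKM in every library. The library of Slit2-IR replicate 1 stood apart: its 12 atrial markers summed to 1969 FPKM, against 82.1 to 314 FPKM in the other 11, and Myl7, the atrial myosin light chain, led that sum at 53.3%. Values for Ucp3, which was highest in that library, are therefore given with and without it. Myl7 also led the atrial sum of C57-IR replicate 2, at 34.3% of 314 FPKM. It stood at 108 FPKM there, at 1049 FPKM in Slit2-IR replicate 1 and at 0.0817 to 12.5 FPKM in the remaining libraries. In heart tissue, fewer cells of a type and less RNA per cell cannot be told apart.

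Acot1 and Acot2 are shown by sequence because their near identity limits what their separate values mean. Both lie on the plus strand of chromosome 12 (GRCm38), Acot2 at chr12:83987861-83993873 and Acot1 at chr12:84009490-84018371. Their coding sequences matched at 95.3% of 1236 aligned positions in GENCODE M21, the longest identical run was 273 bases, and 13.2% of all windows of a read's length in the Acot1 transcript occurred letter for letter in Acot2. The stretch shown holds exonic coding positions 1130 to 1189 of Acot1 (chr12:84017249-84017308) and 1253 to 1312 of Acot2 (chr12:83992971-83993030), with the 5 differing bases in capitals.
Acot1: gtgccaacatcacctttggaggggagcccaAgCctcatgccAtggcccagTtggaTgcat
Acot2: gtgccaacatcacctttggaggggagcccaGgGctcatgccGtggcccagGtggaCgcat
A read that lay wholly in an identical run would match both genes, and how such reads were counted is not given in the sources used here.

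The 250 bases upstream of the gene starts of Ucp3 and Cpt1a are shown, with every AGGTCA or its complement TGACCT in capitals. These genes varied together from heart to heart (Pearson's r = 0.73), but Acot2 with Cpt1a reached 0.79. The window searched for Acot2 held no match, and a link of matches to shared variation was not tested. AGGTCA is the core that PPAR and RXR each contact, and the full element is a direct repeat of it, DR1, with a single base between. The sequences are from RefSeq on GRCm38.p6, chr7:100472741-100472990 on the plus strand for Ucp3 and chr19:3323051-3323300 on the plus strand for Cpt1a.
Ucp3: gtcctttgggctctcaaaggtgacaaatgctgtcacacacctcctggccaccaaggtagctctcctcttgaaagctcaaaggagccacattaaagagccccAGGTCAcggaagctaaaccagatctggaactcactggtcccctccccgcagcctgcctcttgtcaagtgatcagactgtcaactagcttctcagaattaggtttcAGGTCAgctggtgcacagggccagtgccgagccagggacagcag
Cpt1a: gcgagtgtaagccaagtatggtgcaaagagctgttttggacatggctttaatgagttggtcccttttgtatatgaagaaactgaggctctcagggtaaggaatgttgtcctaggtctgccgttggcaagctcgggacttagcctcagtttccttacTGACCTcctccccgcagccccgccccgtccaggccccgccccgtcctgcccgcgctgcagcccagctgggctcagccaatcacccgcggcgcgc
Windows from 250 bases before to 50 after the start were searched on both strands for 7 of the 9 genes, since the table used held none for Angptl4 and Cpt1b. The core occurred in 4 of the 7, at -149 and -44 from the start in Ucp3, at -94 in Cpt1a, at -218 in Plin2 and at -170 and 13 in separate windows of Plin5. It occurred in 16.3% of all 32851 promoter windows. Neither Pdk4, Acot1 nor Acot2 held it, and the full repeat occurred in 0 of the 7 and in 0.0396% of all windows. A match is a description of the letters in these windows only.

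Pdk4 phosphorylates and switches off pyruvate dehydrogenase, the entry of pyruvate into oxidation (ENSMUSG00000019577, chr6:5483351-5496309, minus strand). Its level was 98.2, 112 and 138 in C57-non-IR, 103, 306 and 118 in C57-IR, 73.2, 261 and 97.1 in Slit2-non-IR and 220.1, 234 and 98.4 in Slit2-IR hearts, in FPKM. It was the most abundant of the 9 genes, and its highest heart held 4.18 times the FPKM of its lowest. Outside C57-non-IR, 1 or 2 hearts of each group lay above 200 FPKM and the others at or below 118 FPKM, so that every group overlapped every other.

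The group means of Pdk4 were 116 ± 20.2 FPKM in C57-non-IR, 176 ± 113 in C57-IR, 144 ± 102 in Slit2-non-IR and 184 ± 74.6 in hearts of Slit2-IR (SD, n = 3). The difference after IR was 0.43 on the log2 scale in C57BL/6J hearts (95% interval -0.71 to 1.57) and 0.48 in Slit2-Tg hearts (-0.66 to 1.62). Averaged over genotypes it was 0.46 (SE 0.37, adjusted p = 0.636 in limma's moderated test with Benjamini-Hochberg adjustment). These intervals left room for a fall as well as for a more than 2-fold rise of Pdk4. The other kinases of the complex were measured beside it: Pdk2 lay between 93.8 and 140.2 FPKM, Pdk1 between 18.7 and 27.2 FPKM and Pdk3 between 0.587 and 1.25 FPKM, and none had an unadjusted p under 0.05 in any of the 4 pairwise comparisons.

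**Figure D1:**
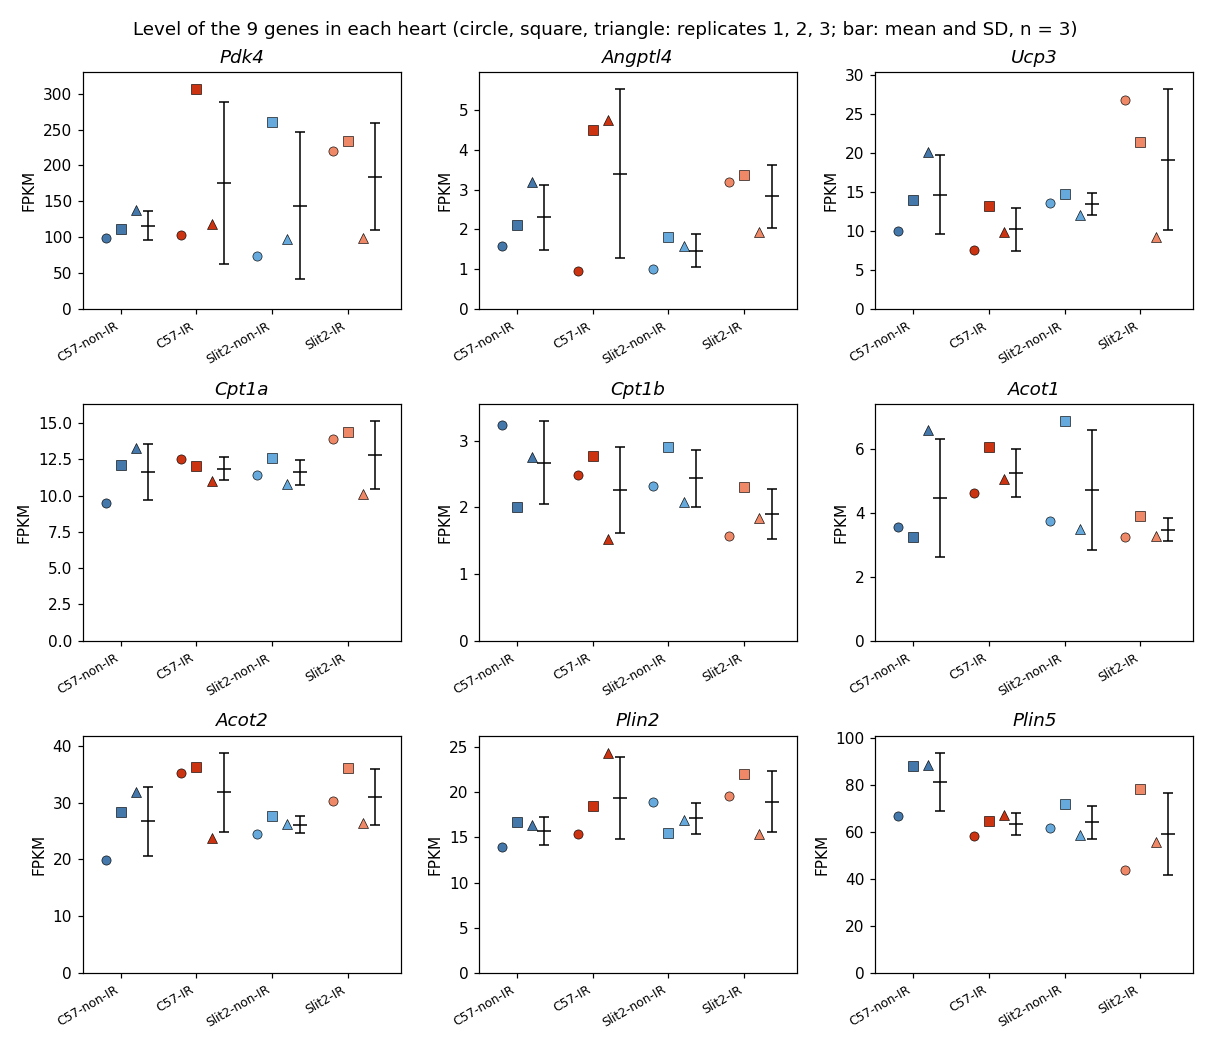
FPKM (vertical axes, from 0) of the 9 genes in each of the 12 hearts, by group; circles, squares and triangles are replicates 1, 2 and 3, and the bar beside them is the mean with its SD (n = 3). Pdk4 ranged from 73.2 to 306 FPKM, with high and low hearts inside 3 of the 4 groups, while Cpt1a stayed between 9.48 and 14.4 FPKM.

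Ucp3 is a carrier of the mitochondrial inner membrane found in muscle and heart (ENSMUSG00000032942, chr7:100472990-100486432, plus strand). Its level was 10.001, 13.9 and 20.1 in C57-non-IR, 7.57, 13.1 and 9.88 in C57-IR, 13.6, 14.8 and 12.01 in Slit2-non-IR and 26.8, 21.3 and 9.27 in Slit2-IR hearts, in FPKM. The 2 highest hearts were Slit2-IR replicates 1 and 2, whereas Slit2-IR replicate 3 lay among the lowest of the series. The group means were 14.6 ± 5.07 FPKM in C57-non-IR, 10.2 ± 2.79 in C57-IR, 13.5 ± 1.38 in Slit2-non-IR and 19.1 ± 8.97 in Slit2-IR hearts.

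Slit2-IR against C57-IR gave the single result among the 9 genes with an unadjusted p under 0.05: Ucp3 was higher by 0.76 on the log2 scale (95% interval 0.01 to 1.51, adjusted p = 0.9996 in limma's test). The groups overlapped, since Slit2-IR replicate 3 at 9.27 FPKM lay below 2 of the 3 C57-IR hearts. Replicate numbers were taken as pairing the hearts of these groups because their deviations correlated, although the labels state no pairing. With this block the unadjusted p was 0.058 in limma's test, no longer under 0.05. Without Slit2-IR replicate 1, the library with 1969 FPKM of atrial markers, the Ucp3 difference was 0.47, and without Slit2-IR replicate 3 it was 1.18 (adjusted p = 0.435 in limma's test). Slit2-IR replicates 1, 2 and 3, with 1969, 165 and 126 FPKM of atrial markers, held 26.8, 21.3 and 9.27 FPKM of Ucp3. In C57-non-IR the order was reversed, with 155, 127 and 82.1 FPKM of atrial markers beside 10.001, 13.9 and 20.1 FPKM of Ucp3. The sums were 183, 314 and 151 FPKM beside 7.57, 13.1 and 9.88 FPKM in C57-IR. In Slit2-non-IR they were 113, 115 and 175 FPKM beside 13.6, 14.8 and 12.01 FPKM. The part of atrial tissue in the Ucp3 difference was not tested. The response of Ucp3 to IR was -0.46 in C57BL/6J and 0.36 in Slit2-Tg hearts, and the difference between these responses was 0.83 (95% interval -0.24 to 1.89).

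Cpt1a and Cpt1b are the liver-type and muscle-type forms of carnitine palmitoyltransferase 1, the step at which malonyl-CoA controls fatty acid oxidation. Cpt1a (ENSMUSG00000024900, chr19:3323301-3385732, plus strand) stood at 9.48, 12.1 and 13.3 in C57-non-IR, 12.6, 12.01 and 11.01 in C57-IR, 11.4, 12.6 and 10.8 in Slit2-non-IR and 13.9, 14.4 and 10.1 in Slit2-IR hearts, in FPKM. It was the steadiest of the 9 genes, with 1.52 times between the highest and the lowest heart, and all 4 group means fell between 11.6 and 12.8 FPKM. Every 95% interval of its 4 pairwise differences lay between -0.31 and 0.43 on the log2 scale.

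Cpt1b (ENSMUSG00000078937, chr15:89416405-89425863, minus strand) stood at 3.24, 2.01 and 2.76 in C57-non-IR, 2.48, 2.77 and 1.53 in C57-IR, 2.32, 2.91 and 2.07 in Slit2-non-IR and 1.56, 2.303 and 1.84 in Slit2-IR hearts, in FPKM. These low values cannot be taken as the level of the muscle form. The gene model of Chkb in the files (chr15:89416405-89429908, same strand), which encodes a choline kinase, holds the whole of Cpt1b. In GENCODE M21 a readthrough gene, Gm44502, shares 2744 of the 3372 exonic bases of Cpt1b, or 81.4%. How reads in shared exons were assigned is not given in the sources used here. The files listed Chkb at 4.96 to 8.27 FPKM, so that neither row carried a high level. Within these limits the group means of Cpt1b fell between 1.90 ± 0.374 FPKM in Slit2-IR and 2.67 ± 0.621 FPKM in C57-non-IR hearts, and the difference averaged over genotypes was -0.21 after IR (95% interval -0.48 to 0.06, adjusted p = 0.472 in limma's test).

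Acot1 and Acot2 are the cytosolic and mitochondrial acyl-CoA thioesterases. Acot1 (ENSMUSG00000072949) stood at 3.55, 3.25 and 6.59 in C57-non-IR, 4.62, 6.07 and 5.04 in C57-IR, 3.75, 6.86 and 3.51 in Slit2-non-IR and 3.26, 3.9003 and 3.26 in Slit2-IR hearts, in FPKM. The 3 hearts above 6 FPKM were 1 each of C57-non-IR, C57-IR and Slit2-non-IR, and all Slit2-IR hearts lay below all C57-IR hearts. The group means in this comparison were 3.47 ± 0.370 against 5.24 ± 0.744 FPKM (SD, n = 3), a difference of -0.48 on the log2 scale (95% interval -1.01 to 0.06, adjusted p = 0.9996 in limma's test). Its unadjusted p was under 0.05 where only these groups entered the fit, or where replicate 3 of C57-non-IR or replicate 2 of Slit2-non-IR, each part of the shared estimate of spread, was left out.

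Acot2 (ENSMUSG00000021226) stood at 19.9, 28.4 and 31.9 in C57-non-IR, 35.3, 36.4 and 23.8 in C57-IR, 24.6, 27.6 and 26.2 in Slit2-non-IR and 30.4, 36.2 and 26.5 in Slit2-IR hearts, in FPKM. Its group means were 26.7 ± 6.15 FPKM in C57-non-IR, 31.9 ± 6.96 in C57-IR, 26.1 ± 1.52 in Slit2-non-IR and 31.0 ± 4.90 in Slit2-IR hearts. Averaged over genotypes, the difference after IR was 0.24 (95% interval -0.06 to 0.54, adjusted p = 0.453 in limma's test). Acot1 made up 15.1, 10.3 and 17.1 in C57-non-IR, 11.6, 14.3 and 17.4 in C57-IR, 13.2, 19.9 and 11.8 in Slit2-non-IR and 9.68, 9.72 and 10.96 in Slit2-IR hearts, as a percentage of the summed FPKM of both genes. This share was lowest in the Slit2-IR hearts, at 10.1% ± 0.726 against 14.4% ± 2.94 in C57-IR hearts, and the ranges of these groups did not overlap. Reads common to the pair make this share uncertain.

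Plin5 and Plin2 coat lipid droplets, Plin5 mainly in oxidative tissues, where it ties droplets to mitochondria, and Plin2 in most cells. Plin5 (ENSMUSG00000011305, chr17:56111601-56117596, minus strand) stood at 66.9, 88.3 and 88.4 in C57-non-IR, 58.04, 64.7 and 67.3 in C57-IR, 61.9, 71.8 and 58.5 in Slit2-non-IR and 43.7, 78.1 and 55.5 in Slit2-IR hearts, in FPKM. Replicates 2 and 3 of C57-non-IR held the highest levels and Slit2-IR replicate 1, the library with the highest sum of atrial markers, the lowest. The group mean was 81.2 ± 12.4 FPKM in C57-non-IR and lay between 59.1 and 64.1 FPKM in the other groups. The difference from C57-non-IR was -0.34 in C57-IR (95% interval -0.76 to 0.07, adjusted p = 0.696) and -0.33 in Slit2-non-IR hearts (-0.74 to 0.08, adjusted p = 0.9995). Both comparisons use the same 3 C57-non-IR hearts. With a block on replicate number, limma gave both differences unadjusted values below 0.05 and adjusted values of 0.377 and 0.953. Neither comparison met the rule for pairing, by which every correlation of same-numbered hearts had to exceed 0.1. The lowest was 0.0837 for C57-IR with C57-non-IR and 0.0380 for Slit2-non-IR with C57-non-IR. The blocked values therefore rest on an assumed pairing and do not strengthen the Plin5 differences.

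Plin2 (ENSMUSG00000028494, chr4:86648386-86670060, minus strand) stood at 13.99, 16.8 and 16.4 in C57-non-IR, 15.4, 18.4 and 24.4 in C57-IR, 18.95, 15.5 and 16.9 in Slit2-non-IR and 19.6, 22.01 and 15.3 in Slit2-IR hearts, in FPKM. Its group means ran from 15.7 ± 1.503 FPKM in C57-non-IR to 19.4 ± 4.54 FPKM in C57-IR hearts, with C57-IR replicate 3 highest. Averaged over genotypes, the difference after IR was 0.20 (95% interval -0.06 to 0.46, adjusted p = 0.472 in limma's test). The proportion between the droplet coats set C57-non-IR hearts apart more than either gene did. Plin2 made up 17.3, 15.9 and 15.6 in C57-non-IR, 21.01, 22.2 and 26.6 in C57-IR, 23.5, 17.8 and 22.4 in Slit2-non-IR and 30.9, 21.99 and 21.6 in Slit2-IR hearts, as a percentage of the summed FPKM of both genes. All C57-non-IR hearts lay below all hearts of each other group, at 16.3% ± 0.882 against 23.3% ± 2.94 in C57-IR, 21.2% ± 3.03 in Slit2-non-IR and 24.9% ± 5.26 in Slit2-IR hearts. The other 3 groups overlapped one another. The share was chosen with the levels known and carries no test.

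**Figure D2:**
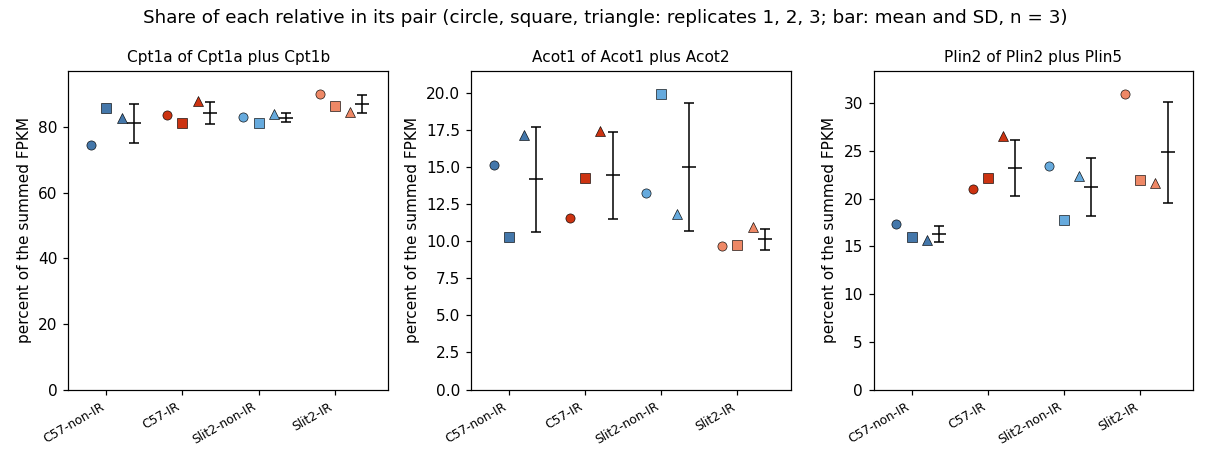
Percentage of the summed FPKM held by Cpt1a, Acot1 and Plin2 within each pair of related genes (vertical axes, from 0), for the 3 hearts of each group; bars are the mean and SD. The Plin2 share was 15.6% to 17.3% in C57-non-IR hearts and 17.8% or above in all others; the Cpt1a and Acot1 shares rest on rows whose reads are uncertain.

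Angptl4, released by fat, muscle and heart, limits the delivery of fatty acids from blood lipoproteins (ENSMUSG00000002289, chr17:33773750-33781575, minus strand). It stood at 1.59, 2.11 and 3.2001 in C57-non-IR, 0.959, 4.504 and 4.74 in C57-IR, 1.01, 1.81 and 1.59 in Slit2-non-IR and 3.19, 3.36 and 1.93 in Slit2-IR hearts, in FPKM, on 55 to 350 reads a library. C57-IR held both the lowest heart of the series, replicate 1, and the 2 highest. The Slit2-IR hearts all lay above the Slit2-non-IR hearts, at means of 2.83 ± 0.785 against 1.47 ± 0.411 FPKM (SD, n = 3).

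The difference between those groups was 0.62 on the log2 scale (95% interval -0.18 to 1.42, adjusted p = 0.582 in limma's test). In C57BL/6J hearts the difference after IR was 0.29 (-0.51 to 1.09), and averaged over genotypes it was 0.46 (SE 0.26, adjusted p = 0.443). Without C57-IR replicate 1 the averaged difference was 0.71 (SE 0.16, adjusted p = 0.0283), so that 1 heart decided whether Angptl4 passed the threshold. Leaving out this heart also changed the calls over all genes, to 533 higher and 180 lower from 356 and 175. Over the 21 alternative settings the adjusted p of Angptl4 for the averaged difference ranged from 0.0283 to 0.706.

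Transcripts of white fat were also low in C57-IR replicate 1 and higher in the other C57-IR hearts. Cfd, or adipsin, a protein secreted by adipocytes, stood at 0, 0.603 and 0.188 in C57-non-IR, 0.0621, 9.29 and 13.1 in C57-IR, 1.15, 5.41 and 5.61 in Slit2-non-IR and 6.52, 1.13 and 0.487 in Slit2-IR hearts, in FPKM. Adipoq, adiponectin, was listed at 0 in C57-IR replicate 1 and stood at 1.76 and 1.32 FPKM in replicates 2 and 3. The 11 white fat markers found in the files summed to 113 to 208 FPKM in C57-IR and to 169 to 237 FPKM in C57-non-IR hearts, and Fabp4, which endothelial cells also express, made up 75.2% to 93.6% of the sum over all 12 libraries. Of the 9 markers tested, 4 had an unadjusted p under 0.05 in C57-IR against C57-non-IR, all higher, and 0 had one for IR in Slit2-Tg hearts, beside 8.96% and 11.2% of all genes. C57-IR replicates 1, 2 and 3, with Cfd at 0.0621, 9.29 and 13.1 FPKM, held 0.959, 4.504 and 4.74 FPKM of Angptl4. Slit2-IR replicates 1, 2 and 3, with Cfd at 6.52, 1.13 and 0.487 FPKM, held 3.19, 3.36 and 1.93 FPKM. The part of fat tissue in the level of Angptl4 was not tested.

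None of the 9 genes passed an adjusted p of 0.05 in any of the 7 comparisons in limma's test, nor with limma-voom on the reads behind the values. Among all 15258 genes, 0.439% passed in C57-IR against C57-non-IR, 0.505% for IR in Slit2-Tg hearts, 0.0393% in Slit2-non-IR against C57-non-IR and 0.0459% in Slit2-IR against C57-IR. The share was 3.48% for IR averaged over genotypes, 0.131% for Slit2-Tg averaged over IR states and 0% for the interaction of Slit2-Tg and IR. Beside shares of this size, 9 genes without a call do not stand apart from the rest.

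At an unadjusted p under 0.05, the cutoff of the study's methods, 0 of the 9 genes passed for IR in C57BL/6J hearts, for IR in Slit2-Tg hearts and for Slit2-Tg without IR, where 8.96%, 11.2% and 3.18% of all genes did. In Slit2-IR against C57-IR, 1 of 9 passed (Ucp3), against 3.16% of all genes. For the averaged effects and the interaction 0 of 9 passed, against 15.9% for IR, 4.11% for Slit2-Tg and 1.85% for the interaction. The study applied the same cutoff to its own pairwise comparisons of reads, and its lists differ from these counts. They hold Plin5 as lower after IR in C57BL/6J hearts, and Plin5 and Angptl4 for Slit2-Tg without IR. In Slit2-IR against C57-IR they hold Ucp3 as higher and Acot1 as lower. From genes lower in Slit2-Tg hearts without IR, the paper reports a reduced PPAR signaling pathway. Groups did not overlap in 0 of 9 genes in C57-IR against C57-non-IR (13.8% of all genes), 1 of 9 in Slit2-IR against Slit2-non-IR (Angptl4, 17% of all genes), 0 of 9 in Slit2-non-IR against C57-non-IR (9.18%) and 1 of 9 in Slit2-IR against C57-IR (Acot1, 6.47%). The median log2 difference over the 9 genes was 0.24, 0.13, -0.01 and -0.02 in these comparisons in the same order, beside medians over all genes between -0.01 and 0.01. In the order of the 4 group means, not 1 of the 9 genes had neighbouring groups whose hearts were separate. The share of all genes with such groups was not computed, so that this count marks nothing particular to the 9 genes.

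**Figure D3:**
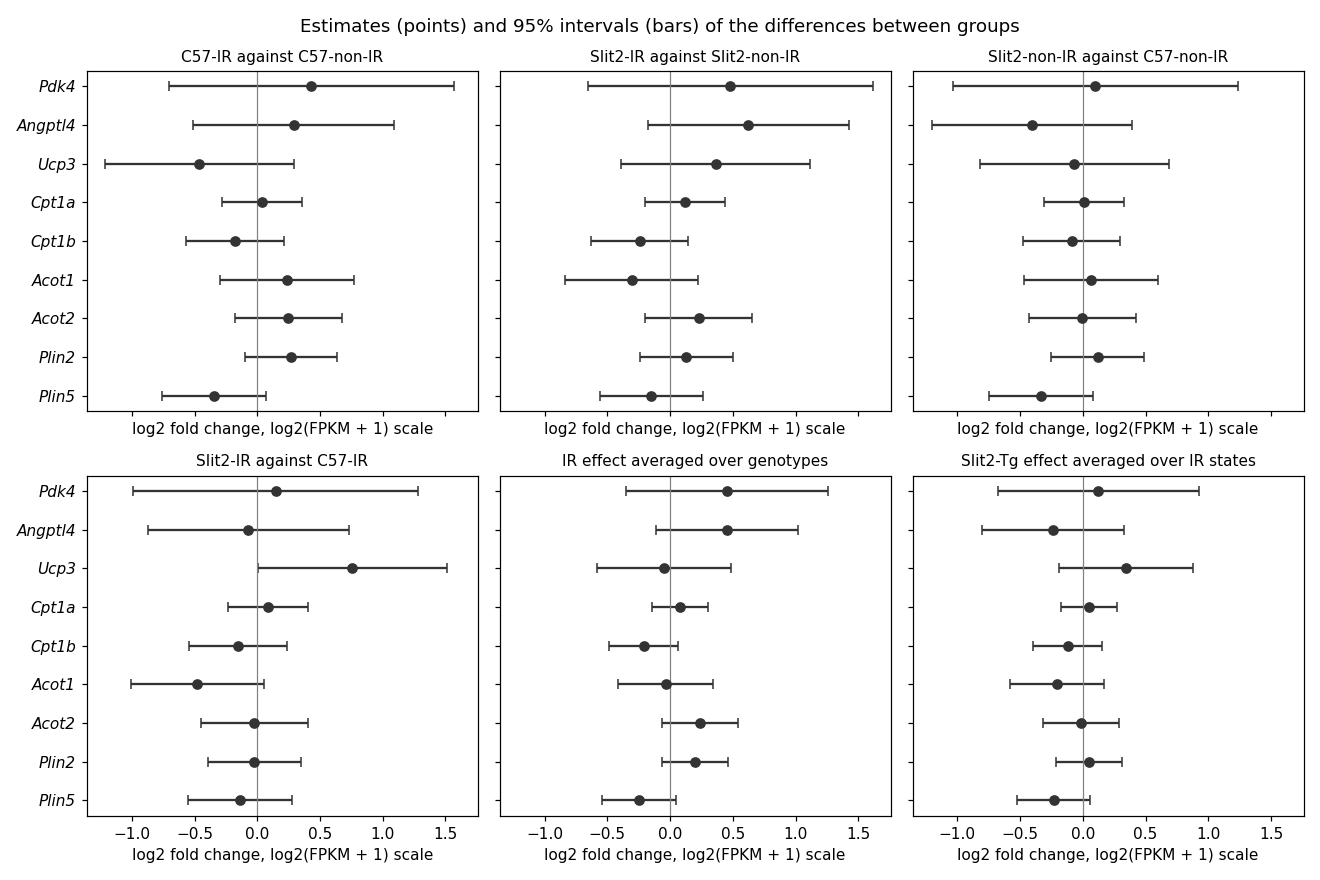
Differences between groups for each gene on the log2(FPKM + 1) scale (horizontal axes; points are estimates, bars 95% intervals) in the 4 pairwise comparisons and the 2 averaged effects. All intervals hold 0 except that of Ucp3 in Slit2-IR against C57-IR, which runs from 0.01 to 1.51; those of Pdk4 are the widest and those of Cpt1a the narrowest.

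Several of these genes varied widely between hearts of the same group. The within-group SD of log2(FPKM + 1) was 0.74 for Pdk4, 0.51 for Angptl4, 0.48 for Ucp3 and 0.33 for Acot1, against a median of 0.15 over all tested genes. Those of Pdk4, Angptl4 and Ucp3 were above 99.1%, 97.2% and 96.7% of all tested genes, and above 97.6%, 97.3% and 95.2% of the 785 to 1001 genes nearest in mean FPKM. Cpt1a, with an SD of 0.19, lay at the 66.1 percentile, and the other 5 genes lay between 76.9 and 91.0. The widest fold within a group exceeded the fold between the highest and lowest group mean for each of the 9 genes, for example 3.57 against 1.59 for Pdk4, 4.94 against 2.32 for Angptl4 and 1.42 against 1.10 for Cpt1a. Single hearts range more widely than group means, and the share of all genes with this order was not computed, so that it marks nothing particular to the 9 genes. These are descriptions of 12 hearts and carry no test.

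**Figure D4:**
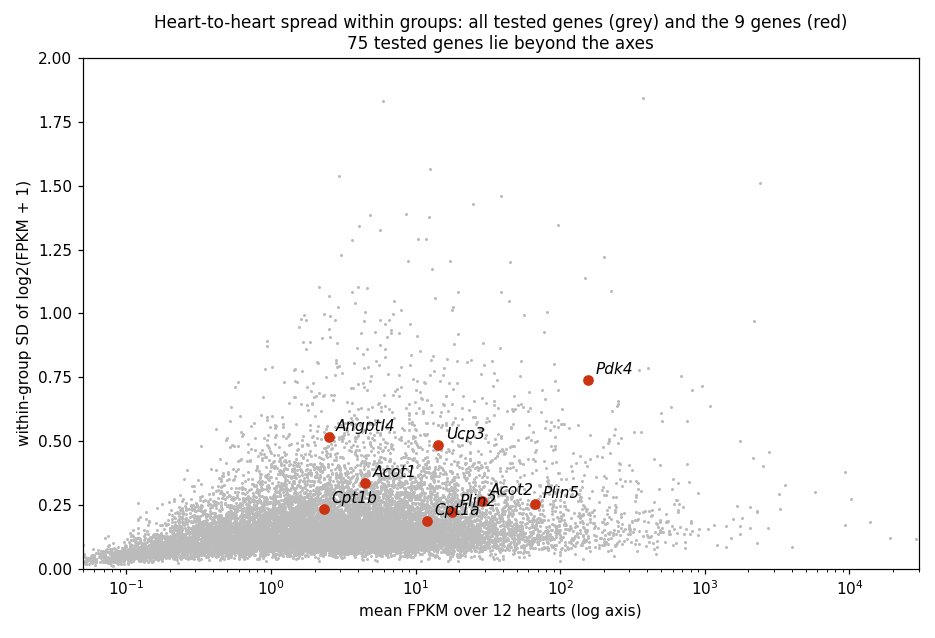
Within-group SD of log2(FPKM + 1) (vertical axis) against mean FPKM over the 12 hearts (horizontal log axis) for all tested genes (grey) and the 9 genes (red, named). Pdk4 at 0.74, Angptl4 at 0.51 and Ucp3 at 0.48 lie near the upper edge for their level, and Cpt1a at 0.19 lies within the bulk.

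Some pairs of these genes were high in the same hearts. Across the 12 hearts, Pearson's r of log2(FPKM + 1) was above 0.5 in 7 of the 36 pairs and below 0 in 5. The highest values were 0.79 for Acot2 with Cpt1a, 0.73 for Ucp3 with Cpt1a, 0.64 for Plin2 with Angptl4 and 0.62 for Pdk4 with Angptl4. After the group means were taken out, these values were 0.81, 0.82, 0.66 and 0.61, so that they were as high within the groups. Cpt1b with Plin2 was the most negative at -0.59. The points share libraries, scaling and group effects, and the correlations are given as descriptions.

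Averaged over the 9 genes, z-scores were highest in replicate 2 of Slit2-IR (0.88), replicate 2 of C57-IR (0.74) and replicate 3 of C57-non-IR (0.74). They were lowest in replicate 3 of Slit2-IR (-0.81) and replicate 1 of C57-non-IR (-0.71). High and low hearts thus stood side by side inside each of the 4 groups, and replicate 2 was the highest of its group in 3 of the 4. The 13 genes known to respond to glucocorticoids, a list that includes the metallothionein Mt1, summed to 483 to 992 FPKM and were also highest in replicate 2 of every group. The part of this list in the spread of the 9 genes was not tested.

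**Figure D5:**
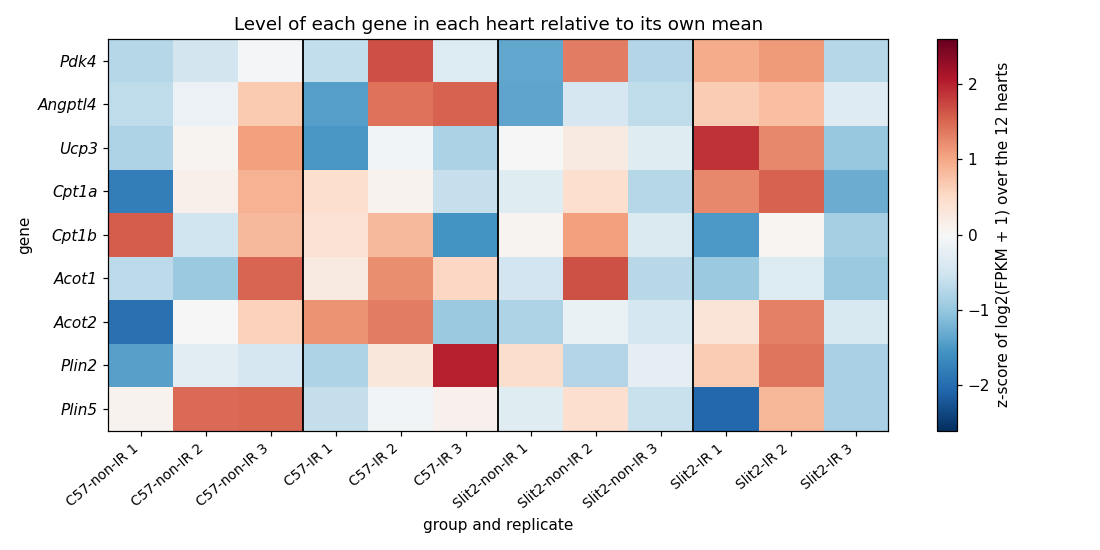
z-score of log2(FPKM + 1) of each gene (rows) in each heart (columns, by group and replicate), relative to the gene's own mean and SD over the 12 hearts. Red and blue hearts occur within every group: Slit2-IR replicate 2 is above the mean in 8 of the 9 genes, and replicate 3 of Slit2-IR and of Slit2-non-IR is below it in all 9.

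Of 10178 protein-coding genes outside the list, those most like the averaged z-score included Rgs2 (r = 0.91), Far1 (0.90), Evc (0.85) and Dact1 (0.83), over 12 hearts. Most like Pdk4 were Gabarapl1 (0.93), Wif1 (0.92) and Bach1 (0.87), and most like Angptl4 were Tpst1 (0.92), Hmgb2 (0.91) and Snai2 (0.90).

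Around these 9 genes, 14 lists held 162 further genes of the pathway, of which 149 were tested. A single gene passed an adjusted p of 0.05 in any comparison: Acot11, a long-chain acyl-CoA thioesterase, which fell after IR. The call was for IR averaged over genotypes, where 3.48% of all 15258 genes passed, so that 1 of 149 genes lies below that share. Its level was 4.06, 6.02 and 4.88 in C57-non-IR, 2.69, 2.11 and 2.95 in C57-IR, 5.62, 5.86 and 4.94 in Slit2-non-IR and 3.701, 4.88 and 2.77 in Slit2-IR hearts, in FPKM. In C57BL/6J all IR hearts lay below all non-IR hearts, and in Slit2-Tg all did too. Averaged over genotypes, the difference was -0.60 on the log2 scale (SE 0.12, adjusted p = 0.0217 in limma's test). The adjusted p ranged from 0.0120 to 0.0600 over the alternative settings, and it was above 0.05 without a filter on low values and without any of C57-non-IR replicates 2 and 3, C57-IR replicate 2, Slit2-non-IR replicates 1 and 2 and Slit2-IR replicate 1. Blocked on replicate number, 3 genes of the lists passed in place of 1: Acot11, Prkab1 and Sirt1. Over all genes, 518 then passed as higher and 255 as lower, against 356 and 175 without the block.

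Of the 149 genes, 8 had an unadjusted p under 0.05 in C57-IR against C57-non-IR (5 higher, 3 lower), 10 in Slit2-IR against Slit2-non-IR (2 higher, 8 lower), 5 in Slit2-non-IR against C57-non-IR (2 higher, 3 lower) and 5 in Slit2-IR against C57-IR (3 higher, 2 lower). These were 5.37%, 6.71%, 3.36% and 3.36% of the list, at or below 8.96% and 11.2% of all genes for IR and close to 3.18% and 3.16% for Slit2-Tg.

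The receptor genes held no call. Ppara lay between 2.94 and 11.6 FPKM, Pparg between 2.64 and 7.40 FPKM, Ppard between 6.48 and 9.15 FPKM, Rxra between 13.3 and 18.7 FPKM, Rxrb between 12.6 and 17.4 FPKM and Rxrg between 17.4 and 24.8 FPKM. None of these 6 genes had an unadjusted p under 0.05 in any of the 7 comparisons. Ppara, the receptor itself, differed after IR by 0.08 in C57BL/6J hearts (95% interval -0.60 to 0.76) and by -0.51 in Slit2-Tg hearts (-1.19 to 0.17), where all Slit2-IR hearts lay below all Slit2-non-IR hearts.

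Of the 14 coregulators and estrogen-related receptors, 0 passed the adjusted threshold. Ppargc1a, or PGC-1alpha, the coactivator of mitochondrial genes, stood at 8.94, 11.8 and 15.2 in C57-non-IR, 12.9, 15.9 and 14.04 in C57-IR, 15.4, 13.4 and 9.68 in Slit2-non-IR and 9.17, 8.74 and 7.86 in Slit2-IR hearts, in FPKM. All Slit2-IR hearts lay below all C57-IR hearts, at 8.59 ± 0.667 against 14.3 ± 1.53 FPKM, a difference of -0.67 on the log2 scale (95% interval -1.08 to -0.26, adjusted p = 0.9996 in limma's test). Sirt1, a deacetylase that acts on PGC-1alpha, stood at 3.06 ± 0.433 and 5.20 ± 1.89 FPKM in C57-non-IR and C57-IR hearts and at 3.11 ± 0.328 and 5.01 ± 1.78 FPKM in Slit2-non-IR and Slit2-IR hearts, a difference after IR of 0.54 averaged over genotypes (adjusted p = 0.0936, and 0.0111 when blocked on replicate number). Esrrb differed by -0.35 in Slit2-IR against Slit2-non-IR (adjusted p = 0.299). For Lpin1, Med1, Ncoa1, Ncoa2, Nrip1, Ncor1, Esrra, Esrrg and Perm1 the 4 pairwise differences lay between -0.22 and 0.28 on the log2 scale, and Ppargc1b reached 0.53 in Slit2-non-IR against C57-non-IR (95% interval 0.02 to 1.04, adjusted p = 0.9995).

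Enzymes of mitochondrial beta-oxidation, 18 genes, held 0 with an unadjusted p under 0.05 in the 4 pairwise comparisons. Of all genes, 8.96% and 11.2% did for IR in C57BL/6J and Slit2-Tg hearts, and 3.18% and 3.16% for Slit2-Tg without and after IR. The median difference of the 18 genes was 0.07 in C57-IR against C57-non-IR, where 17 were positive. For IR in Slit2-Tg hearts it was 0.00 and 9 were positive, against medians of 0.00 and 0.01 over all genes. In Slit2-IR against C57-IR, which shares the C57-IR hearts with the first of these, it was -0.06 and 1 was positive. The share of positive differences over all genes was not computed, so that these counts of signs mark nothing particular to the list. Acad10 differed by -0.21 after IR averaged over genotypes (adjusted p = 0.308). The carnitine shuttle (6 genes), the pyruvate dehydrogenase complex with its kinases and phosphatases (13 genes) and the acyl-CoA synthetases (7 genes) likewise held 0 in the 4 pairwise comparisons. Acsl3 differed by 0.32 for Slit2-Tg averaged over IR states (95% interval 0.03 to 0.62, adjusted p = 0.9992).

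Among lipid droplet and lipolysis genes, 6 of 19 had an unadjusted p under 0.05 for IR averaged over genotypes (2 higher, 4 lower), beside 15.9% of all genes. Plin3, a further droplet coat, stood at 90.3 ± 11.7 FPKM in C57-non-IR and 74.3 ± 13.8 FPKM in C57-IR, and at 95.5 ± 7.42 and 72.5 ± 2.48 FPKM in Slit2-non-IR and Slit2-IR hearts, a difference of -0.34 (adjusted p = 0.0826). Lpin3, a phosphatidate phosphatase, differed by -0.57 in C57-IR against C57-non-IR (adjusted p = 0.117).

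In the control of malonyl-CoA, Prkab1, a subunit of the energy sensor AMPK, stood at 10.7, 9.61 and 9.25 in C57-non-IR, 15.1, 15.3 and 11.4 in C57-IR, 12.04, 9.54 and 9.38 in Slit2-non-IR and 13.1, 15.2 and 11.7 in Slit2-IR hearts, in FPKM. It differed by 0.40 after IR averaged over genotypes (SE 0.10, adjusted p = 0.0543 in limma's test, and 0.0174 when blocked on replicate number). Acaca, which makes malonyl-CoA, differed by -0.20 (adjusted p = 0.261) in Slit2-IR against Slit2-non-IR. Among the genes of fatty acid uptake, Lpl, the lipase that Angptl4 inhibits, differed by -0.23 (adjusted p = 0.330) in the same comparison.

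In the remaining lists no gene passed the adjusted threshold. Bdh1, which oxidises the ketone body hydroxybutyrate, differed by -0.66 after IR averaged over genotypes (adjusted p = 0.131). Of 11 other PPAR-alpha targets, 2 had an unadjusted p under 0.05 in Slit2-non-IR against C57-non-IR, both lower, beside 3.18% of all genes: Ucp2 by -0.55 and Aqp7, a glycerol channel, by -0.36 (adjusted p = 0.9995 for each). Aqp7 also differed by -0.55 in C57-IR against C57-non-IR (adjusted p = 0.194). Abcd2, a peroxisomal transporter of acyl-CoA, differed by 0.45 in Slit2-non-IR against C57-non-IR (adjusted p = 0.9995). Angptl6 differed by 0.20 in Slit2-IR against C57-IR hearts (adjusted p = 0.9996).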

How the data were processed

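RNA of 12 mouse hearts was sequenced as paired ends from libraries of an NEBNext Ultra RNA kit, with no statement on strand. Per the labels, the submitters' processing notes name HISAT2 and mm10. The authors deposited FPKM per gene and library. The deposited FPKM multiplied by gene length were whole multiples of a step of each library for 100% of values (tolerance 0.001 reads), and the steps followed median-of-ratios size factors, so that the libraries had been scaled together and their reads could be recovered. 0 columns of per-library values were left unused.

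A gene was tested if its FPKM matched 10 or more reads of a median-sized library in 3 or more hearts and its reads summed to 15 or more. limma 3.58.1 (R 4.3.3) was fitted with a variance trend to log2(FPKM + 1) with 4 group means over all 12 libraries, and p-values were adjusted by Benjamini-Hochberg over 15258 genes (threshold 0.05). Fold changes on this scale understate those of low genes. Intervals are 95% from the same fit. The fit was tested on simulated reads. limma-voom on the recovered reads called 404 genes higher and 186 lower for IR averaged over genotypes, against 356 and 175 in the FPKM fit. The p-values measure the spread between these samples only, which may be technical in part.

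IR status was read from the second letter of the sample titles with the study's methods. The labels state no pairing of hearts. Replicate numbers were taken as pairing hearts where all 3 correlations of same-numbered deviations exceeded 0.1, and correlations of differently numbered hearts were not computed for comparison. The same-numbered correlations were 0.285, 0.154 and 0.362 for Slit2-IR with C57-IR and 0.291, 0.295 and 0.142 for Slit2-IR with Slit2-non-IR. They were 0.295, 0.127 and 0.0837 for C57-IR with C57-non-IR and 0.324, 0.0380 and 0.105 for Slit2-non-IR with C57-non-IR.

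The members and lists were chosen with earlier results of these data known. Genes named besides the 9 were all PPAR, RXR, coregulator and estrogen-related receptor genes, Pdk1 to Pdk3, at most 4 genes of every other list past the adjusted threshold or at most 3 with the smallest unadjusted p under 0.05, and the genes most like the 9, Pdk4 or Angptl4 by Pearson's r. Of the genes this rule names, 2 are not reported here. Of the 9 gene models, 7 had the same coordinates and length in GENCODE M21; those of Angptl4 and Cpt1a differed.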

Additional observations from a re-analysis of the deposited data

Results flagged for a closer look

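The interaction term in limma's test compares the responses to IR of the 2 genotypes. It had an unadjusted p under 0.05 for 0 of the 9 genes and for 4 of the 149 tested genes of the pathway lists, or 2.68%. This is close to the 1.85% of all genes. Each of the 4 has an adjusted p of 0.9998, so that none passes over all genes, and 282 of 15258 genes reach an unadjusted p under 0.05. Lpin3 responded by -0.57 in C57BL/6J and 0.18 in Slit2-Tg hearts on the log2 scale, a difference of 0.76 (SE 0.19, 95% interval 0.33 to 1.18). Ppargc1a responded by 0.26 and -0.51, a difference of -0.77 (SE 0.26, -1.35 to -0.19). Acaca responded by 0.08 and -0.20, a difference of -0.28 (SE 0.10, -0.50 to -0.07), at a level under 1 FPKM in all hearts. Lpl responded by 0.10 and -0.23, a difference of -0.33 (SE 0.12, -0.60 to -0.06). With 3 hearts a group, Dixon's test for a deviating value within a group was not run.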

How the results depend on the processing

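Each comparison was recomputed under 21 alternatives: a pseudocount of 0.1, 2 other filters on low values, only the groups compared, the replicate number as a block, 2 other scalings, limma-voom on the recovered reads, a robust prior variance and leaving out each of the 12 libraries. Of 1323 values of the 9 genes, 1 passed an adjusted p of 0.05 (Angptl4 for IR averaged over genotypes without C57-IR replicate 1, 0.71), and the number of the 9 genes called there ranged from 0 to 1 when a library was left out. The sign differed from the reported one in 76 of the 1323 values, none of which passed the threshold. At an unadjusted p under 0.05 the number of the 9 genes ranged from 0 to 2 over the alternatives in C57-IR against C57-non-IR, in Slit2-IR against C57-IR and for IR averaged over genotypes, and from 0 to 1 in the other 4 comparisons.

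For IR averaged over genotypes, 1 gene of the pathway lists passed; the number was 0 without a filter on low values, 2 with 10 reads in every library, 2 with upper-quartile scaling, 2 with total-read scaling, 2 with limma-voom and 3 with the replicate block, and 0 to 3 when a library was left out. With the replicate block no call on the 9 genes changed, and the number called stayed 0 in every comparison. Same-numbered replicates correlated above the cutoff in all 3 pairs in only 2 of the 4 comparisons. The labels state no pairing, so that the block is an assumption in all 4. Total-read scaling put the summed FPKM of cardiomyocyte markers in C57-IR at 27053 in place of 28640. The cause of these changes was not tested. With 3 hearts a group, the intervals of Pdk4 in the 4 pairwise comparisons spanned more than 2 log2 units from end to end; Angptl4, with 55 to 350 reads a library, also carries counting error.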

Other observations

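Hilpda, a droplet protein that restrains lipolysis and is known to respond to low oxygen, was picked out after its values had been seen. It stood at 3.94, 3.53 and 2.99 in C57-non-IR, 3.32, 7.21 and 11.3 in C57-IR, 2.797, 3.07 and 3.37 in Slit2-non-IR and 3.22, 8.51 and 4.92 in Slit2-IR hearts, in FPKM. As for Angptl4, C57-IR replicate 1 lay with the non-IR hearts and C57-IR replicates 2 and 3 were high. The difference after IR averaged over genotypes was 0.68 on the log2 scale (SE 0.24, adjusted p = 0.181 in limma's test), higher in 4 of the 6 IR hearts than in any non-IR heart. Without C57-IR replicate 1 it was 0.89 (adjusted p = 0.0278 in limma's test). Over all genes, 533 passed as higher and 180 as lower in that fit, against 356 and 175 with all hearts.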
